A study of Mus musculus with 6 samples.

Results

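The genes described here encode the sealing strands and scaffold of tight junctions and the channels of gap junctions in the epidermis. They are the rows for 9 gene symbols, Cldn1, Cldn4, Cldn7, Ocln, Tjp1, Gja1, Gjb2, Gjb5 and Gjb6, among 49671 genes of a bulk RNA-seq table. Each symbol matched 1 row, and 8 of the 9 genes passed the filter on low values that left 15413 genes to test. Cldn7 did not pass.

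Outbred CD1 mice gave 2 libraries for each of 3 groups: castrated males, females and intact males. Ear epidermis was dissociated with trypsin, and living cells with surface integrin alpha 6 and without CD34 were sorted, a gate for basal keratinocytes outside the hair follicle bulge. Each library pooled sorted cells from 2 littermates, so litter cannot be told apart from sex or castration, and p-values measure the spread between such pools. Sources used here give neither the age of the mice nor the time since castration. Differences between the sexes in the dynamics of epidermal stem cells were the subject of the study.

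Tight junctions close the space between neighbouring epithelial cells. Claudins form their strands, occludin sits among the claudins, and zonula occludens proteins tie the strands to actin; in skin the functional seal lies in the granular layer, above the basal cells sorted here, while several of its genes are already transcribed below. Gap junctions are channels between cells, built of connexins from both cells, that pass ions and small metabolites. Keratinocytes use several connexins with layer-specific patterns, and inherited mutations of connexin genes cause skin disease and deafness in humans.

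In females, transcripts of the connexins Gjb2 and Gja1 were higher than in intact males, and those of Cldn1 and Ocln, of the tight junction strand, were lower. Gjb2 was also lower in castrated males than in females. No member passed the test between castrated and intact males. Cldn4, Tjp1, Gjb5 and Gjb6 passed in no comparison. Values are reads scaled to a common library total (CPM), and fold changes and their standard errors are on the log2(CPM + 0.5) scale. A gene was called at a Benjamini-Hochberg adjusted p below 0.05 by limma.

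Libraries held 8412487 to 9648154 reads. A count of 0 would allow a level of up to 0.307 to 0.385 CPM, the worth of 3 reads, for counting error only. Transcripts of 4 Y-linked genes numbered 341 to 1937 reads in every castrated and intact male library and 0 to 2 reads in every female library, as the labels require. On the first principal component, which held 56.2% of the variance, the females lay at 28.92 (replicate 1) and 64.17 (replicate 2). All 4 other libraries lay between -32.39 and -16.58, and male replicate 1 stood apart on the second component (41.88, against -15.67 to 1.74). Of the basal markers, Krt5 stood between 10020 and 13400 CPM and Itga6 between 317 and 373 CPM in all libraries. Cd34 stood between 1.49 and 3.06 CPM.

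Upstream sequences are shown for the 4 members that were called between females and males. They are the 250 bases before the annotated start of each gene, from RefSeq on GRCm38.p6, 5′ to 3′ on the strand of the gene. Capitals mark matches to the AP-1 motif TGANTCA or to the GC box GGGCGG on either strand.
Gja1 (chr10:56377050-56377299, plus strand): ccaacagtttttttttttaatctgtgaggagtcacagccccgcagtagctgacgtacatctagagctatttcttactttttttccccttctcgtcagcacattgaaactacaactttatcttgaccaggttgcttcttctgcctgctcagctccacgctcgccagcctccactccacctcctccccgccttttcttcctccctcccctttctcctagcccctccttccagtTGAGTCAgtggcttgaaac
Gjb2 (chr14:57104703-57104952, minus strand): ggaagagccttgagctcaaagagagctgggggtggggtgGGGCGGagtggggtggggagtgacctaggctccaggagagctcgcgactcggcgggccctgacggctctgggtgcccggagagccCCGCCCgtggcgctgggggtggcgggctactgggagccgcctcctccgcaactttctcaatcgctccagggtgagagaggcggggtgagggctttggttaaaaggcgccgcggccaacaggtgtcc
Cldn1 (chr16:26371840-26372089, minus strand): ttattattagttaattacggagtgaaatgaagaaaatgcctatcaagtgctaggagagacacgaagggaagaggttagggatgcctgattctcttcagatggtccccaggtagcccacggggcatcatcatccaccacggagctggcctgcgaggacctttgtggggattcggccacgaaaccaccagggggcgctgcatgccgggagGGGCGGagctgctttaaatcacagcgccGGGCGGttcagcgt
Ocln (chr13:100552719-100552968, minus strand): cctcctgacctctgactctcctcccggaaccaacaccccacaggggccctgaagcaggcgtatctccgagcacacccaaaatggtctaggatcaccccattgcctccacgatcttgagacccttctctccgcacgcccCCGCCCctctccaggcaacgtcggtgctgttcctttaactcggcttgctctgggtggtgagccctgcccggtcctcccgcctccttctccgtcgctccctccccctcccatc
Gja1 held an AP-1 match 19 bases before its start and no GC box, whereas Gjb2 and Cldn1 held 2 GC boxes each and Ocln 1, with no AP-1 match. Among 32851 upstream windows of this length, 6.75% held the AP-1 motif and 32.7% the GC box. The Gjb2 window had a GC content of 69.2%, against 50.0% for Gja1 and a median of 52.4% over all windows. Of the members not shown, Cldn4 held 2 AP-1 matches, at 240 and 158 bases before its start. None of the windows of the 9 genes, which matched 11 entries, held the core ACCGGT of Grainyhead-like factors, found in 1.86% of all windows. None held TGTTCT, a half-site of androgen and glucocorticoid receptors, found in 16.1%. Estrogen receptor sites were not searched. These letters are matches of sequence only.

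Gja1, Gjb5 and Cldn1 were the most abundant of the 9 per length of transcript. With CPM divided by the length in kb of the principal transcript in GENCODE M21, Gja1 averaged 197 over the 6 libraries (126 to 369), Cldn1 75.5 (54.5 to 111) and Gjb5 55.9 (49.2 to 61.8). Ocln followed with 13.8 (9.74 to 17.6). The ranges of Cldn1 and Gjb5 overlapped, but by this length Cldn1 lay above Gjb5 in every library. By the union of exons, given below, Cldn1 averaged less than Gjb5, so their order depends on the length used. The ranges of Gja1, of this pair and of Ocln lay apart. Gjb2 averaged 7.82 (1.42 to 23.7), Cldn4 4.56 (2.14 to 6.22), Tjp1 4.03 (3.62 to 4.32) and Gjb6 3.55 (1.89 to 4.87), and these 4 ranges overlapped, that of Gjb2 also with that of Ocln. Cldn7 averaged 0.324 CPM per kb. The place of Gja1 rests on its length: the principal transcript spans 3.182 kb and the union of all its annotated exons 10.257 kb, over which it averaged 61.1 CPM per kb, against 55.9 for Gjb5 and 50.6 for Cldn1. GENCODE M21 lists no other gene whose exons overlap those of a member.

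**Figure D1:**
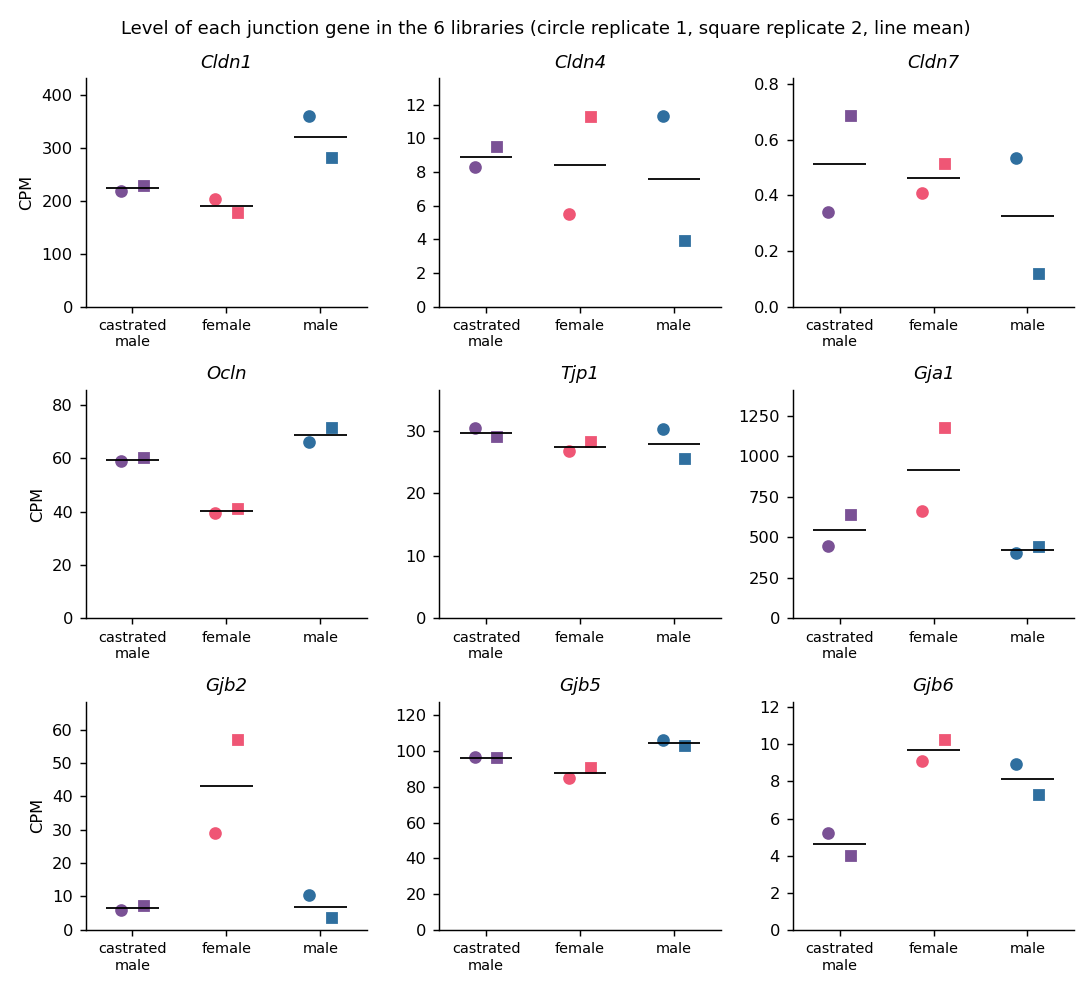
CPM of each of the 9 genes (vertical axes, from 0) in castrated male, female and male libraries, with circles for replicate 1, squares for replicate 2 and lines for group means. Gja1 and Gjb2 are highest in both female libraries (662 and 1175 CPM, and 29.0 and 57.1 CPM), and Ocln and Cldn1 are lowest there.

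Among the claudins, Cldn1, whose loss in mice is fatal after birth through water loss across the skin, was lower in females than in males. The gene lies on chromosome 16 (26356642 to 26371841, minus strand, GRCm38). Cldn1 had 219 and 228 CPM in castrated male libraries, 205 and 177 CPM in female libraries, and 360 and 282 CPM in male libraries. Both female libraries and both castrated male libraries lay below both male libraries. Females averaged 191 ± 19.5 CPM and males 321 ± 55.4 CPM (SD, n = 2 libraries each), a log2 fold change of -0.74 ± 0.15 (SE) with a limma adjusted p of 0.0268. In castrated males Cldn1 averaged 224 ± 6.36 CPM, and the log2 fold change against intact males was -0.51 ± 0.15. That difference had an unadjusted limma p of 0.00732 and did not pass after adjustment (adjusted p = 0.633, 95% interval -0.84 to -0.18). Castrated males and females differed by 0.23 ± 0.15 (adjusted p = 0.384, 95% interval -0.10 to 0.57). Without male replicate 1, the library with the highest value, the log2 fold change of females against males was -0.56 (adjusted p = 0.0873).

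Cldn4, a claudin of the upper epidermal layers, varied more within groups than between them. Its libraries gave 8.30 and 9.45 CPM in castrated males, 5.52 and 11.3 CPM in females, and 11.3 and 3.88 CPM in males, from 33 to 106 reads each. All 3 groups overlapped. The higher of the male libraries exceeded the lower by 2.91 times, and the 95% interval of females against males ran from -0.83 to 1.29 (log2 fold change 0.23, limma adjusted p = 0.799). Markers of the granular layer, where Cldn4 is mainly made, moved in the same direction between replicates: of 12 tested, 11 were higher in male replicate 1 than in male replicate 2, all but Tgm3, and 11 were higher in female replicate 2 than in female replicate 1, all but Flg2. The same held for 6 of 7 spinous markers in males, all but Krt1, and for 6 of 7 in females, all but Dsg1a. The summed level of the granular markers was 413 CPM in male replicate 1 and 430 CPM in male replicate 2. Against intact males their median log2 fold change was 1.15 in females and 1.05 in castrated males, where Cldn4 had 0.23 and 0.38. The part of granular or spinous cells in the level of Cldn4 was not tested.

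Cldn7, a claudin that binds the adhesion protein EpCAM, was near the limit of detection. It had 3 and 6 reads in castrated male libraries, 4 and 4 in female libraries and 5 and 1 in male libraries, which is 0.118 to 0.683 CPM. No difference was tested at this depth.

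Ocln, the gene of occludin, agreed closely within groups and was lowest in females. It lies on chromosome 13 (100496507 to 100552718, minus strand). Ocln had 58.8 and 60.1 CPM in castrated males, 39.5 and 40.8 CPM in females, and 65.9 and 71.3 CPM in males. No 2 groups overlapped, and castrated males lay between females and intact males. Females averaged 40.1 ± 0.93 CPM and males 68.6 ± 3.81 CPM (SD, n = 2 each), a log2 fold change of -0.77 ± 0.13 (limma adjusted p = 0.0171). Castrated males averaged 59.5 ± 0.93 CPM, and their log2 fold change against females was 0.56 ± 0.13 with an adjusted p of 0.0667, outside the threshold. Against intact males it was -0.20 ± 0.13 (adjusted p = 0.951, 95% interval -0.50 to 0.09).

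Tjp1, which encodes a zonula occludens scaffold that binds claudins and actin, was even across the groups. It had 30.5 and 29.0 CPM in castrated males, 26.8 and 28.2 CPM in females, and 30.3 and 25.5 CPM in males. The 95% interval of the log2 fold change between females and males ran from -0.37 to 0.35 (limma adjusted p = 0.966), that between castrated and intact males from -0.26 to 0.46, and that between castrated males and females from -0.25 to 0.47.

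Among the connexins, Gjb2, whose human counterpart is a common site of deafness mutations and whose product rises in wounded and psoriatic human epidermis, showed the largest log2 fold change of the 8 tested genes. It lies on chromosome 14 (57098600 to 57104702, minus strand). Gjb2 had 5.91 and 7.17 CPM in castrated males, 29.0 and 57.1 CPM in females, and 10.3 and 3.41 CPM in males, from 29 to 445 reads each. Both female libraries lay above all 4 others, and castrated males lay within the range of intact males. Females averaged 43.0 ± 19.8 CPM and males 6.87 ± 4.90 CPM (SD, n = 2 each), 6.34-fold higher on the log2(CPM + 0.5) scale (log2 fold change 2.66 ± 0.46, limma adjusted p = 0.0197). Castrated males averaged 6.54 ± 0.89 CPM, 0.170 times the female level (log2 fold change -2.56 ± 0.46, adjusted p = 0.0377). Between castrated and intact males the log2 fold change was 0.11 ± 0.46, with a 95% interval from -0.94 to 1.16 (adjusted p = 1). The libraries of 1 group differed up to 3.03 times, in males. Male replicate 1 exceeded male replicate 2 and female replicate 2 exceeded female replicate 1. In each of these pairs the same held for 11 of 12 granular and 6 of 7 spinous layer markers. Between castrated and intact males the granular markers had a median log2 fold change of 1.05, where that of Gjb2 was 0.11. The part of granular or spinous cells in the level of Gjb2 was not tested.

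Gja1, the main connexin of basal keratinocytes, was higher in females than in males. It lies on chromosome 10 (56377330 to 56402513, plus strand). Gja1 had 447 and 639 CPM in castrated males, 662 and 1175 CPM in females, and 400 and 437 CPM in males. Both female libraries lay above all others, and castrated male replicate 2 (639 CPM) came close to the lower female library (662 CPM). Females averaged 919 ± 363 CPM and males 419 ± 26.3 CPM (SD, n = 2 each), a log2 fold change of 1.08 ± 0.26 (limma adjusted p = 0.0471). Castrated males averaged 543 ± 136 CPM, with a log2 fold change of -0.72 ± 0.26 against females (adjusted p = 0.162, 95% interval -1.31 to -0.13) and of 0.35 ± 0.26 against intact males (adjusted p = 0.98, 95% interval -0.24 to 0.94). Without female replicate 2, in which it was highest, the log2 fold change of females against males was 0.66 (adjusted p = 0.275).

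Gjb5 and Gjb6, connexin genes of the suprabasal epidermis, passed in no comparison. Gjb5 lies on chromosome 4 (127354809 to 127358181, minus strand). It had 96.7 and 95.9 CPM in castrated males, 84.8 and 90.4 CPM in females, and 106 and 103 CPM in males. The 3 groups did not overlap, and the differences were small: -0.25 ± 0.12 for females against males (limma adjusted p = 0.217, 95% interval -0.52 to 0.01) and -0.12 ± 0.12 for castrated against intact males (adjusted p = 1). Gjb6 had 5.23 and 3.99 CPM in castrated males, 9.10 and 10.3 CPM in females, and 8.95 and 7.29 CPM in males, from 35 to 89 reads each. Castrated male libraries were the lowest for Gjb6, at 4.61 ± 0.88 CPM on average, against 9.68 ± 0.82 CPM in females and 8.12 ± 1.18 CPM in males (SD, n = 2 each). The log2 fold change of castrated males was -0.76 ± 0.25 against intact males (limma unadjusted p = 0.0141, adjusted p = 0.727). Against females they had 0.499 times the level on the same scale (limma adjusted p = 0.082).

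**Figure D2:**
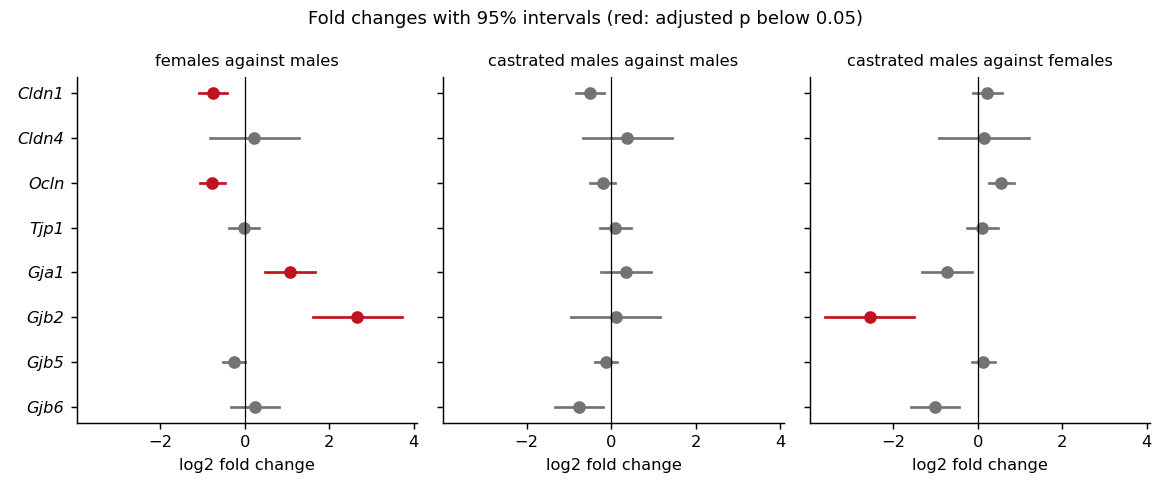
Log2 fold changes (horizontal axes) of the 8 tested genes in the 3 comparisons, with points for the estimate, lines for the 95% interval of the limma fit and red for an adjusted p below 0.05. Gjb2, Gja1, Cldn1 and Ocln are red for females against males, Gjb2 alone for castrated males against females, and no gene for castrated against intact males.

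In all, 4 of the 8 tested members were called between females and males, 2 higher and 2 lower, where 6.11% of all genes tested were called (3.7% higher and 2.4% lower). An unadjusted p below 0.05 was reached by 4 members and by 24.9% of all genes. Groups did not overlap for 6 of the 8, as for 53.7% of all genes. The median log2 fold change of the members was 0.11, against -0.01 over all genes tested. Between castrated males and females 1 member was called, lower in castrated males, where 1.73% of all genes were called and 1.15% were lower. Unadjusted p-values below 0.05 were found for 4 members and 21.6% of all genes there, and groups that did not overlap for 7 members and 57.7% of all genes. Between castrated and intact males 0 members were called by limma, where 0.0389% of all genes were, and 2 members, Cldn1 and Gjb6, had an unadjusted p below 0.05, as did 5.93% of all genes. Groups did not overlap for 5 members and 35.5% of all genes. The 3 comparisons share libraries and are not independent of each other. The members were chosen with earlier results of these data known, so these counts and shares are a description and not a test.

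The calls changed when single libraries were left out, and the adjusted p of each gene also depends on the p-values of all genes tested. Each fit with 1 library left out had 2 residual degrees of freedom, against 3 with all 6. For Ocln the log2 fold change of females against males was -0.77 with all 6 libraries and -0.79 without female replicate 2. Without female replicate 2 no member was called in any comparison (limma adjusted p from 0.102 to 0.275 for these 4 in females against males), and without female replicate 1 all 4 calls between females and males stood. Castrated male libraries enter the comparison of females with males through the shared spread: without castrated male replicate 1 none of the 4 was called (adjusted p from 0.0565 to 0.0826), and without castrated male replicate 2 Gjb2 alone was (0.0539 to 0.0728 for the others). Without male replicate 1 Ocln and Gjb2 were called (Cldn1 0.0873, Gja1 0.119), and without male replicate 2 all but Gja1 (0.0953). With no filter on low values, or without the intensity trend in limma, none of the 4 was called, and with the 4 female and male libraries alone Gjb2 was. Gja1, whose adjusted p of 0.0471 lay closest to the threshold, was also lost with log2(CPM + 0.1) (0.0507) and with the robust estimate of limma (0.0721), and was called in 6 of 16 settings. For these 4 genes the log2 fold change kept its sign with any 1 library left out, from 1.90 to 3.41 for Gjb2, 0.66 to 1.49 for Gja1, -0.95 to -0.56 for Cldn1 and -0.81 to -0.74 for Ocln. The call of Gjb2 between castrated males and females was lost without female replicate 2, castrated male replicate 1 or castrated male replicate 2 (log2 fold changes -2.07, -2.39 and -2.69, adjusted p = 0.38, 0.347 and 0.209). It was also lost with the robust estimate (limma adjusted p = 0.0735), with no filter (0.146) and without the trend (0.142), and held in 9 of 16 settings.

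**Figure D3:**
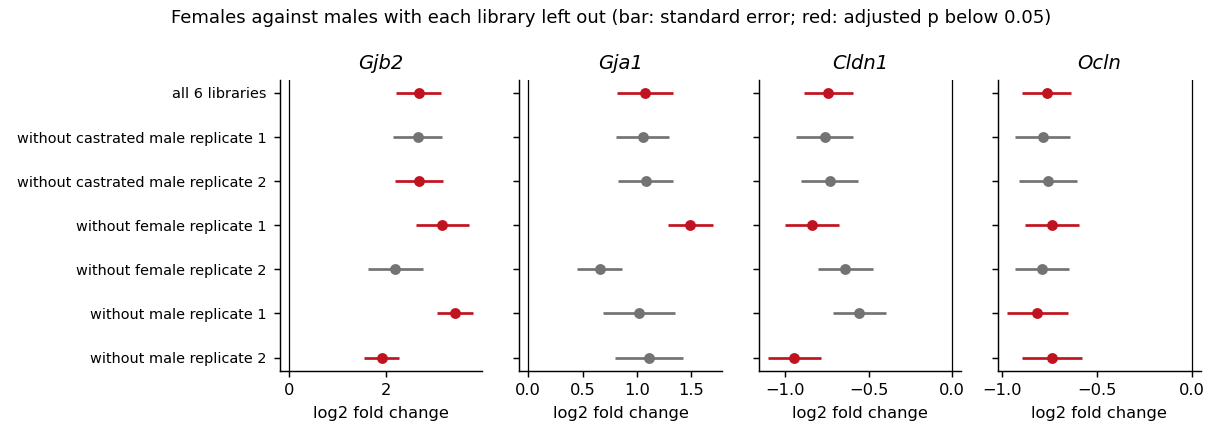
Log2 fold change of females against males (horizontal axes) for Gjb2, Gja1, Cldn1 and Ocln with all 6 libraries and with each library left out in turn; bars are standard errors and red marks an adjusted p below 0.05. All points stay on 1 side of 0 for each gene, and all 4 are grey without female replicate 2 and without castrated male replicate 1.

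The make-up of connexin transcripts is given per library as a description. Of the summed CPM per kb of principal transcript over the connexin genes in the table, Gja1 made up 44.3% and 54.4% in castrated males, 53.4% and 66.2% in females, and 38.1% and 40.9% in males. Gjb2 made up 0.776% and 0.808% in castrated males, 3.1% and 4.25% in females, and 1.3% and 0.421% in males. Gjb5 made up 17.7% and 15.1% in castrated males, 12.6% and 9.41% in females, and 18.7% and 17.7% in males. The share of Gjb2 was highest in both female libraries and that of Gjb5 lowest there, while for Gja1 castrated male replicate 2 lay above female replicate 1. The summed level was 317 and 369 CPM per kb in castrated males, 389 and 558 in females, and 330 and 336 in males. Gjb5 itself averaged 50.88 CPM per kb in females and 60.75 in males and was not called. No test was made of these shares, and all of them depend on the length used for Gja1, which is part of the summed level. Of the claudins, Cldn1 alone held 73.9% and 73.1% of the summed CPM per kb in castrated males, 74.2% and 67.2% in females, and 78.9% and 79.8% in males.

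**Figure D4:**
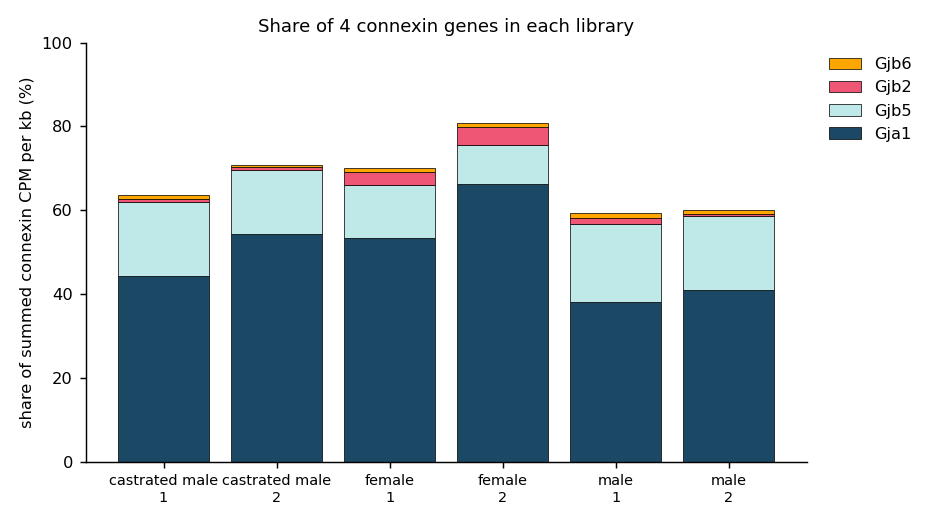
Share of the summed connexin CPM per kb (vertical axis, percent) of the connexins Gja1, Gjb5, Gjb2 and Gjb6, stacked, in each library; the space above each bar, up to 100%, belongs to other connexins. Gja1 takes 53.4% and 66.2% in females and 38.1% and 40.9% in males.

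On chromosome 14 Gjb6 (57123303 to 57133611) lies 18.6 kb from Gjb2, with the annotated gene Gm4491 between them, and Gja3, a connexin gene best known from the lens and named here after its values were seen, lies 40.5 kb from Gjb2 on the other side. Gja3 had 6.71 and 4.33 CPM in castrated males, 2.66 and 2.18 CPM in females, and 2.98 and 2.94 CPM in males, and was not called (limma adjusted p = 0.114 for castrated males against females). Gjb2 was highest in females, Gja3 in castrated males, and Gjb6 was lowest in castrated males.

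Lists of other junction genes are set beside the 6.11% of all genes that were called between females and males. Of 4 tested other claudins 0 were called by limma in any comparison, and 1 had an unadjusted p below 0.05 between females and males. Cldn8 had 17.0 and 18.9 CPM in castrated males, 11.9 and 12.4 CPM in females, and 19.0 and 17.5 CPM in males (limma adjusted p = 0.0974 for females against males), and Cldn12 stood between 35.1 and 44.9 CPM in all libraries. Of 7 other membrane proteins, Marveld2, which encodes tricellulin, the seal of three-cell contacts, fell in females to 24.1 and 15.3 CPM, against 33.6 and 42.4 CPM in males (log2 fold change -0.96 ± 0.22, limma adjusted p = 0.0432). Cxadr, a receptor of the immunoglobulin family found at tight junctions, had 338 and 349 CPM in castrated males and 542 and 822 CPM in females (log2 fold change -0.96 ± 0.19, limma adjusted p = 0.0467), against 394 and 456 CPM in males. F11r, a junctional adhesion molecule, stood between 201 and 233 CPM.

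Of 25 tested plaque and polarity genes 0 were called by limma, and 20 had a negative log2 fold change in females against males, with a median of -0.20 and 7 unadjusted p-values below 0.05. Over all 15413 genes tested 7885 had a negative value, and 24.9% an unadjusted p below 0.05. In the same comparison the log2 fold change correlated with transcript length over all genes (Spearman rho = -0.143), and the part of length in this list was not tested. By CPM, not divided by length, the highest of the list were Tjap1 (102 to 160 CPM) and Afdn, the gene of afadin (101 to 189 CPM). Of 6 other connexin and pannexin genes 0 were called, with a median of -0.15 and 1 unadjusted p below 0.05 between females and males. Of 15 adherens junction genes, Pkp4 rose in females to 45.5 and 52.7 CPM, against 22.8 and 21.5 CPM in males (log2 fold change 1.13 ± 0.16, limma adjusted p = 0.00952). Arvcf, an armadillo-repeat catenin like Pkp4, fell to 46.6 and 33.0 CPM in females, against 83.8 and 72.0 CPM in males (-0.98 ± 0.18, limma adjusted p = 0.0224). The 2 most abundant genes of that list, Jup and Cdh1, did not pass, with Cdh1 at 841 and 818 CPM in females and 1091 and 1033 CPM in males (adjusted p = 0.114).

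Of 12 proteases and transcription factors that act on the epidermal barrier in mice, 1 rose and 1 fell in females. Ovol1 had 55.7 and 60.6 CPM in castrated males, 89.2 and 115 CPM in females, and 44.5 and 48.2 CPM in males. Its log2 fold change was 1.12 ± 0.15 for females against males and -0.79 ± 0.15 for castrated males against females (limma adjusted p = 0.00883 and 0.0449). Klf4, a factor needed for the skin barrier in mice, had 176 and 174 CPM in castrated males, 115 and 81.9 CPM in females, and 183 and 163 CPM in males. It differed by -0.83 ± 0.16 between females and males and by 0.85 ± 0.16 between castrated males and females (limma adjusted p = 0.0273 and 0.0459). Trp63, the most abundant of the list, was not called.

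**Figure D5:**
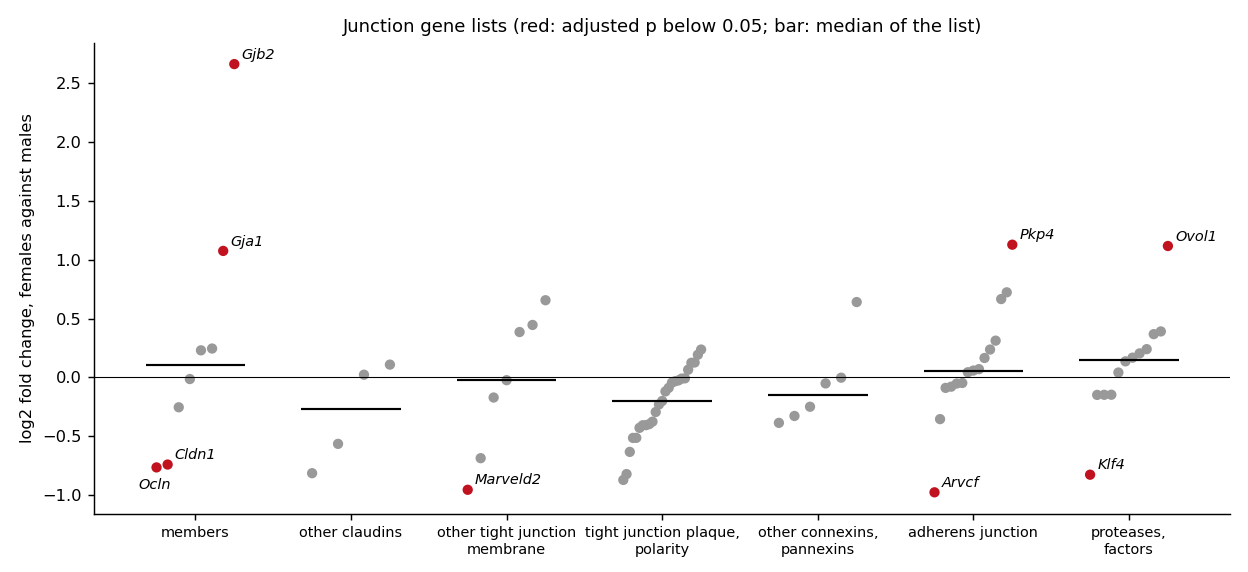
Log2 fold change of females against males (vertical axis) for the 8 tested members and 6 other lists of junction genes, with points for genes, bars for the list medians and red for an adjusted p below 0.05. Gjb2 at 2.66 is the highest point, and the 25 plaque and polarity genes have a median of -0.20 with no red point.

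Markers of other layers and cells moved with the same comparison. Of 12 granular layer markers 5 rose and 1, Flg2, fell in females against males, with summed levels of 522 and 623 CPM in castrated males, 601 and 841 CPM in females, and 413 and 430 CPM in males. Their median log2 fold change was 1.15 in that comparison and 1.05 between castrated and intact males. Between castrated and intact males 0 of these markers were called, and 6 had an unadjusted limma p below 0.05, as did 5.93% of all genes. Of 7 spinous markers 2 rose and 1 fell. Of 7 tested Langerhans and dendritic markers Cd74, H2-Aa and H2-Ab1 rose, with a summed level of 410 and 480 CPM in castrated males, 1086 and 2354 CPM in females, and 379 and 439 CPM in males. Cd207, which defines Langerhans cells, stood between 5.01 and 8.46 CPM in all libraries. S100a8, S100a9 and Cxcr2 rose among 4 tested neutrophil and macrophage markers, whose summed level was 7.96 and 11.2 CPM in castrated males, 259 and 971 CPM in females, and 8.63 and 5.88 CPM in males, while Ly6g, the neutrophil marker, had at most 1 read in a library. Of 8 basal markers 0 were called by limma, with summed levels between 41320 and 48810 CPM. Between females and males 4 of them had an unadjusted limma p below 0.05, as did 24.9% of all genes. Their median log2 fold change there was -0.25 (-0.71 to 0.21), with 5 negative and 3 positive. Summed fibroblast markers, another source of Gja1 and Tjp1, stood at 9.78 and 11.3 CPM in castrated males, 14.8 and 7.69 CPM in females, and 27.0 and 12.3 CPM in males. Summed T cell, melanocyte, Merkel, endothelial, hair follicle and sebaceous, and muscle and cartilage markers had 0 called genes by limma between females and males, with an unadjusted p below 0.05 for 1 T cell marker and 2 hair follicle and sebaceous markers. Melanocyte sums were 37.0 and 75.4 CPM in castrated males, 27.0 and 40.9 CPM in females, and 34.5 and 40.8 CPM in males. In bulk RNA, fewer cells of a type and less RNA per cell cannot be told apart, and the part of any of these cells in the levels of the junction genes was not tested. Length of the principal transcript moved with the libraries as well: over 15366 genes, which are not independent, its Spearman correlation with the deviation of a library from the mean was -0.17 in female replicate 2 and 0.128 in castrated male replicate 1, and between those values in the others.

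A few genes followed the called members most closely over the 6 libraries. Likeness was the root mean square difference of centred log2(CPM + 0.5) values, over 11534 candidates with a mean of at least 5 CPM. Nearest to Gjb2 was Tnc, which encodes the matrix glycoprotein tenascin C, with a difference of 0.0954, where Gjb2 itself varied by 1.33 around its mean. Tnc had 51.4 and 66.7 CPM in castrated males, 250 and 449 CPM in females, and 100 and 36.0 CPM in males, so that male replicate 1 exceeded male replicate 2 for both genes. Next for Gjb2 were 8030451A03Rik and Gpr37, at 0.206 and 0.218. Nearest to Gja1, which varied by 0.530, was Pfkl, a phosphofructokinase gene of glycolysis, at 0.0632, followed by Smc2 and Ier3 at 0.101 and 0.105. Cldn1 was followed by Abcg1, Cxx1a and Tmem231 at 0.0613 to 0.0629, and Ocln by Sdccag8, Npl and Chmp4c at 0.0635 to 0.0685, where Cldn1 and Ocln varied by 0.332 and 0.326.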

How the data were processed

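Bulk polyA RNA of sorted basal keratinocytes was measured in 6 libraries, grouped by sample title. The submitters' processing notes name STAR 2.7.5a, HTSeq 0.11.1, FastQC and Picard as tools and mm10 and GRCm38 as builds. For annotation, strand setting and scaling the sources used here give nothing. The deposited values are scores, made from read counts scaled to a library total of 20000000 and rounded. In each library 100% of the values lay within 0.5 of a multiple of 1 step (2.07 to 2.38), as 42.1% to 48.2% of arbitrary whole numbers would, and division by the step, rounded, gave reads. Negative binomial tests were kept to values deposited as counts, so none was run. CPM used TMM library factors (0.927 to 1.03) computed on those reads. Genes with at least 1.16 CPM, worth 10 reads at the median depth, in 2 or more libraries, and 15 reads or more in total, were tested in limma 3.58.1 (R 4.3.3). The fit used log2(CPM + 0.5), 1 mean per group, all 6 libraries, 3 residual and 5.82 prior degrees of freedom and an intensity trend; p-values are two-sided and adjusted over all 15413 genes. The procedure was tested on simulated data.

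Replicates of a group differed by more than sampling noise (chi-square per degree of freedom 4.79 to 13.6). Male replicate 2 is numbered by its title, which differs from the number in its library name. Positions and lengths are from GENCODE M21 (GRCm38), whose principal transcript was the longest of the best APPRIS class. The members and gene lists were chosen with earlier results of these data known, and the GC box after sequences were seen. Named genes are the members, the called genes and the 2 with the highest CPM in each junction list, the 3 genes most like each called member, and defining cell markers; some genes this rule names are not reported here. Motifs were searched on both strands. Alternatives concerned library scaling, pseudocount, filter, prior variance, libraries in the fit, a replicate block and each library left out.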

Additional observations from a re-analysis of the deposited data

How the results depend on the processing

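Each comparison was recomputed under other processing settings. Taken over 16 settings, the 5 calls of single members held in 46 of 80 cases and were lost in 34, always with the same sign. Values outside the threshold stayed there with the same sign in 291 of 304 cases, gained a call in 4 and changed sign in 9. No setting moved the median log2 fold change of all genes by 0.1 or more. Between females and males 941 genes and 4 members were called. With no filter beyond 1 read these were 103 and 0, without the intensity trend 103 and 0, and with only the 4 libraries of the compared groups 265 and 1. Between castrated and intact males, 6 genes were called, 11 with log2(CPM + 2), 12 with the robust estimate and 2 with no filter. Between castrated males and females, 266 genes and 1 member were called. These were 33 and 0 with no filter, 59 and 0 without the trend, and 560 and 2 with only the 4 libraries, while 0 members were called with the robust estimate and 2 with library totals alone. The cause of these moves was not tested.

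With 1 library left out, 49 to 1772 genes and 0 to 4 members were called between females and males, 1 to 74 genes and 0 members between castrated and intact males, and 21 to 1319 genes and 0 to 2 members between castrated males and females; a group then holding 1 library is assumed to vary like the others. All changes of sign were among these settings and in values outside the threshold. For females against males the log2 fold change of Tjp1 ran from -0.16 to 0.11 (0.03 without female replicate 1) and that of Cldn4 from -0.51 to 0.95 (-0.26 without female replicate 2). For castrated against intact males that of Cldn4 ran from -0.34 to 1.101, that of Tjp1 from -0.027 to 0.22 and that of Gjb2 from -0.63 to 0.85 (-0.02 without castrated male replicate 2). For castrated males against females that of Cldn4 ran from -0.33 to 0.64.

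The labels do not say whether same-numbered libraries share a litter or a day. Deviations of same-numbered libraries from their group means correlated by -0.153 between males and females and by -0.01 between males and castrated males. The correlation was 0.19 between females and castrated males. These correlations alone cannot show whether such a pairing exists. With the replicate number as a block, 817 genes were called between females and males, 5 between castrated and intact males and 162 between castrated males and females, where 0 members were called (Gjb2, limma adjusted p = 0.0666). Between females and males the 4 member calls stood in that fit. For Gja1 its standard error was 0.17 (limma adjusted p = 0.0211), against 0.26 without the block. The planned negative binomial tests were not run, as they were kept to values deposited as counts. Cldn7 had 1 to 6 reads per library and was not tested. Cldn4 and Gjb6 had 33 to 106 reads per library. Their standard errors for females against males were 0.47 and 0.25, and the part of depth in these was not tested.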
